A study of Mus musculus with 6 samples.

Results

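Integrins, laminins, type IV collagens and the other large proteins of the basement membrane, with fibronectin, were followed in the Achilles tendon of mice with a ScxCre-driven conditional knockout of Dicer and of mice with intact Dicer. The list holds 42 genes chosen by family, and all 42 were found in a table of 54189 lines of RNA-seq counts. It has 12 integrin alpha subunits, 6 integrin beta subunits, the integrin-binding protein Itgb1bp2, 10 laminin chains, 6 type IV collagen chains, the linkers and proteoglycans Nid1, Nid2, Hspg2, Agrn and Col18a1, the laminin receptor Dag1, and Fn1.

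The 3 RNA-seq libraries came from Achilles tendon of mice at 4 weeks of age, with 1 mouse and 1 library per genotype. Control mice were Dicer f/f and carried no Cre. ScxHt mice were ScxCre/+ KI:Dicer +/+ and Dicer cKO mice were ScxCre/+ KI:Dicer f/f, so that both of these carried a Cre knock-in at 1 allele of Scx, a tendon transcription factor. ScxCre acts in cells that express Scx, chiefly those of tendon and ligament, and the tissue also holds vessels, nerve, muscle and fat.

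Integrins are receptors of 1 alpha and 1 beta subunit that tie the cytoskeleton to the matrix, and the alpha subunit largely sets which ligand is bound. Basement membranes are thin sheets built on a laminin network, each laminin being a trimer of an alpha, a beta and a gamma chain, and on a separate type IV collagen network, with nidogens and perlecan between them. In tendon, such sheets surround capillaries, nerve fibres with their Schwann cells and the muscle fibres at the muscle-tendon junction, while tenocytes lie in fibrillar collagen and meet fibronectin and collagen through integrins.

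For each pair of libraries, counts were divided by size factors of that pair, and genes whose mean normalized count exceeded 50 were analysed by the ratio of the pair. A ratio below 0.60 was counted as lower and one above the inverse of that, about 1.7, as higher. Each ratio is given with a 95% interval that covers counting error only. With 1 library per genotype there is no test, and the spread between mice is unknown. The libraries held 14959399 to 16244232 counts. The members took up 0.973% of these in Control, 1.16% in ScxHt and 0.863% in Dicer cKO tendon. Dicer1 itself had 1919 reads in Control, 2025 in ScxHt and 1621 in Dicer cKO tendon, and stood at 0.877 (0.821 to 0.938) in Dicer cKO against Control, counted over the whole gene and all cells. Against ScxHt it stood at 0.882 (0.826 to 0.942), so both intervals lay below 1. These reads show slightly less Dicer1 in the Dicer cKO library, but not its loss. By real-time PCR, the paper found Dicer significantly lower in Achilles tendon of Dicer cKO than of Control mice at this age. The paper also describes the decrease as not dramatic. Dicer cKO is used here as the label of the genotype. Scx had 1055 reads in Control, 686 in ScxHt and 371 in Dicer cKO tendon. In the summed RNA of a tissue, fewer cells of a type and less RNA per cell cannot be told apart.

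Of the 42 members, 39 passed the minimum in all 3 comparisons. The other 3 were scarcely read. Lama1 had 0, 1 and 5 reads in the Control, ScxHt and Dicer cKO libraries, Col4a6 had 4, 6 and 6, and Lamc3 had 16, 37 and 14. The Lama1 count of 0 allows up to 3 reads.

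Most members lay between the thresholds, and those past them did not share a direction. In Dicer cKO against Control, Itgb8 alone was higher (1 of 39, 2.56%, beside 3.87% of 13504 genes analysed). Fn1, Itga11, Lama3 and Lamb3 were lower (4 of 39, 10.3%, beside 4.17% of all genes). The median log2 ratio of the members was 0.06, beside -0.03 for all genes. The interval lay above 1 for 18 members (46.2%, beside 21.5% of all genes) and below 1 for 12 (30.8%, beside 28.4%). The members were more deeply read than other genes, with a median mean count of 1111 against 301, so their intervals were narrower.

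The mice with intact Dicer also differed from each other. In ScxHt against Control, no member was higher (0 of 39, beside 3.05% of 13563 genes), and Itgb4 and Itgb6 were lower (2 of 39, 5.13%, beside 4.73%). The interval lay above 1 for 11 members (28.2%, beside 26.4%) and below 1 for 13 (33.3%, beside 23.7%), and the median log2 ratio was -0.07, beside 0.02 for all genes. Dicer cKO against ScxHt, both of which carried the Cre allele, gave 4 higher members, Itgb6, Itgb1bp2, Itga7 and Itgb4 (10.3%, beside 7.67% of 13555 genes), and 3 lower ones, Fn1, Lamb3 and Itga2 (7.69%, beside 5.68%). There the interval lay above 1 for 20 members (51.3%, beside 24.8%) and below 1 for 14 (35.9%, beside 30.5%), with a median log2 ratio of 0.10, beside -0.03. Each comparison shares a library with both of the others, so they are not independent of each other.

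**Figure D1:**
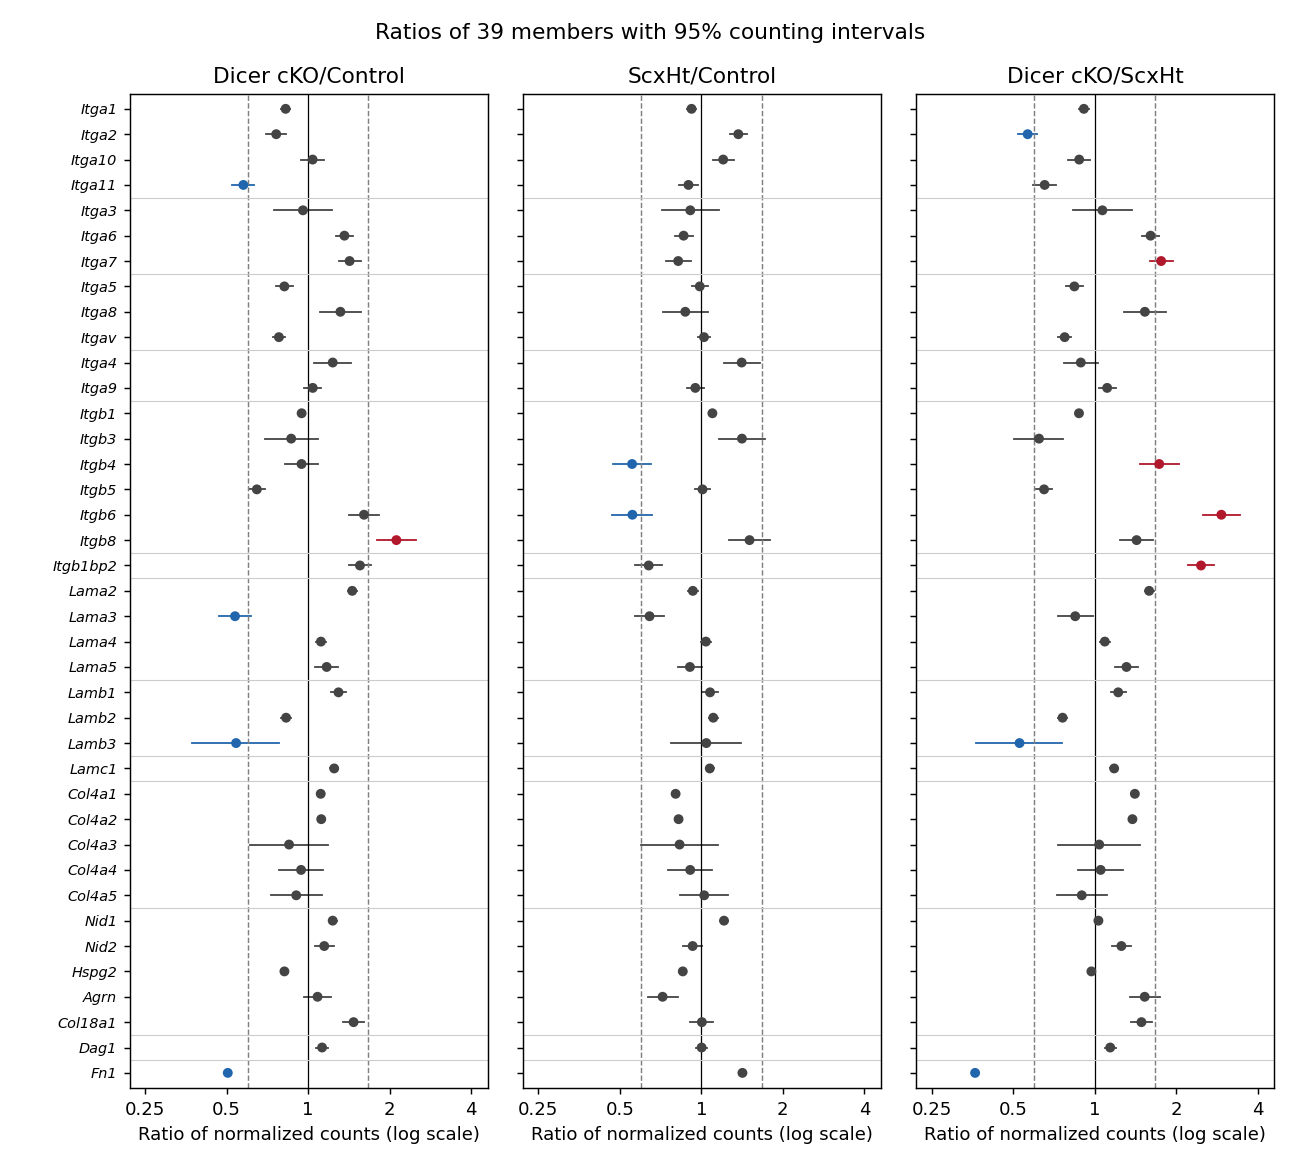
Ratios of normalized counts (log scale) of the 39 members analysed in the 3 comparisons, with 95% counting intervals as lines and the upper and lower thresholds dashed. Members past a threshold are red (higher) or blue (lower), 1 and 4 of them in the left panel, 0 and 2 in the middle and 4 and 3 on the right, and grey rules separate the families.

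Fibronectin was the most read member in every library and had the lowest ratio of the 39 for Dicer cKO against both other libraries. In reads scaled by gene length and library total (RPKM), Fn1 also led in Control and ScxHt. In Dicer cKO its RPKM lay just below that of Itgb1, at 146 against 150. Fn1 codes for a large adhesive glycoprotein that cells assemble into fibrils through integrin alpha5 beta1. It had 52621 reads in Control, 77906 in ScxHt and 25605 in Dicer cKO tendon, which was 33.3%, 42.4% and 19.8% of all reads of the members. The Dicer cKO library was the lowest and the ScxHt library the highest. The Fn1 ratio was 0.505 (0.498 to 0.513) in Dicer cKO against Control, 1.42 (1.40 to 1.43) in ScxHt against Control and 0.362 (0.357 to 0.367) in Dicer cKO against ScxHt. Without Fn1, the other members together held 0.649%, 0.670% and 0.692% of the counts, so Fn1 set the order of the members' total. Fn1 is on chromosome 1 from 71585520 to 71653200 (GRCm38, minus strand).

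Its receptor subunits differed less. Itga5, the alpha subunit of the main fibronectin receptor, had 1608 reads in Control, 1656 in ScxHt and 1266 in Dicer cKO tendon, with a Dicer cKO to Control ratio of 0.818 (0.759 to 0.881) and a ScxHt/Control ratio of 0.987 (0.921 to 1.06). Per length, Fn1 stood 13.8 times above Itga5 in Control, 19.9 times in ScxHt and 8.54 times in Dicer cKO tendon, a ratio within each library that no scaling can move. Itga4 and Itga9 bind other sites in fibronectin and related ligands. Itga4 was lowest in the Control, with 293 reads in Control, 431 in ScxHt and 348 in Dicer cKO tendon, while Itga9 hardly differed, with 1469 reads in Control, 1457 in ScxHt and 1472 in Dicer cKO tendon. The Itga4 ratios were 1.23 (1.05 to 1.45) in Dicer cKO against Control and 1.41 (1.21 to 1.64) in ScxHt against Control. Itga8, an RGD-binding subunit known from mesenchyme and smooth muscle, had 235 reads in Control, 214 in ScxHt and 298 in Dicer cKO tendon and a Dicer cKO to Control ratio of 1.32 (1.11 to 1.57).

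**Figure D2:**
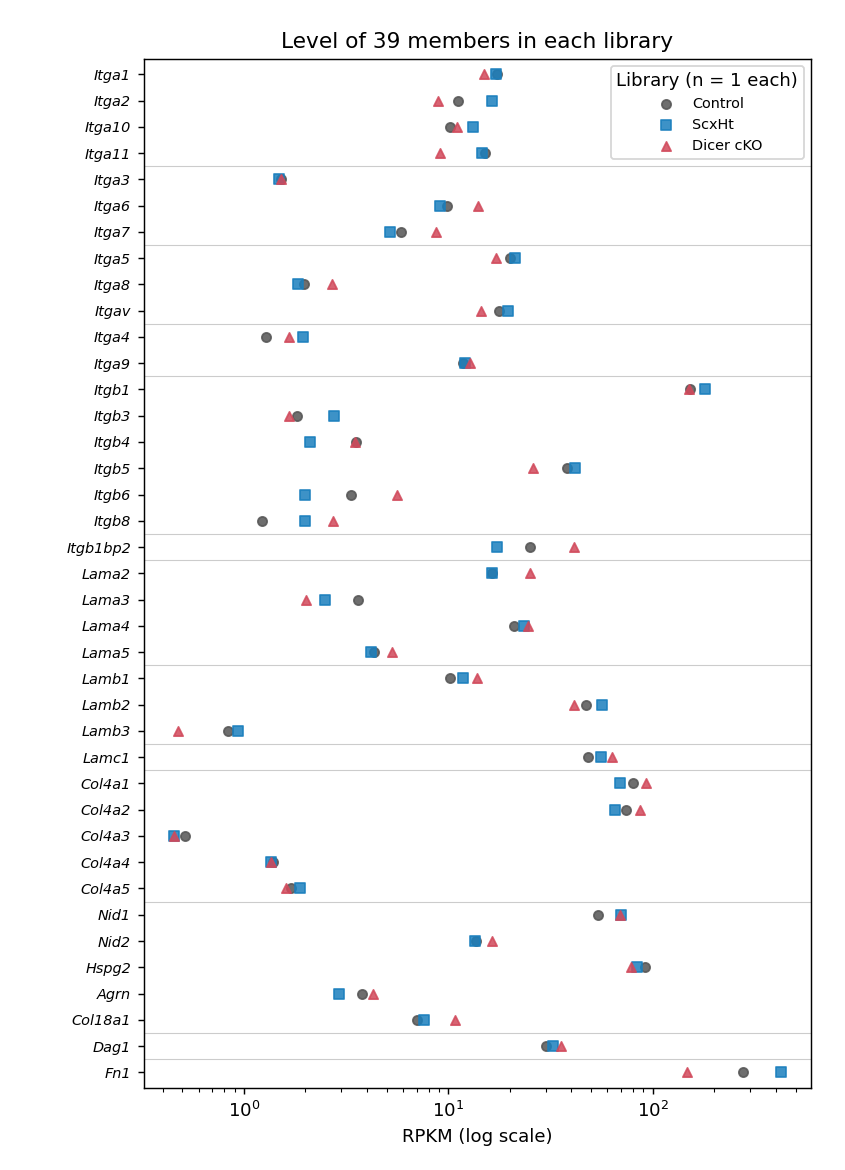
RPKM (reads scaled by gene length and library total, log scale) of the 39 members analysed in the Control, ScxHt and Dicer cKO library, 1 point per library. Fn1 spans 146 to 423 and Itgb1 150 to 179, while the alpha subunits span 1.29 to 21.3.

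The 4 alpha subunits that bind collagen with beta1 had between 700 and 5210 reads in every library. Itga11, the receptor for fibrillar collagen found on fibroblasts, was the lowest of them relative to the Control. It had 1260 reads in Control, 1179 in ScxHt and 700 in Dicer cKO tendon, with ratios of 0.577 (0.525 to 0.633) in Dicer cKO against Control, 0.897 (0.828 to 0.972) in ScxHt against Control and 0.654 (0.595 to 0.719) in Dicer cKO against ScxHt. The Control and ScxHt libraries thus lay close together and the Dicer cKO library below both. Itga11 is on chromosome 9 from 62677826 to 62783982 (GRCm38, plus strand).

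Itga2, another collagen receptor subunit, had 1285 reads in Control, 1837 in ScxHt and 944 in Dicer cKO tendon. It was highest in ScxHt and was lower in Dicer cKO than in both others, with ratios of 0.763 (0.701 to 0.830) to the Control and 0.566 (0.523 to 0.613) to ScxHt. Itga1, whose product prefers type IV collagen, had 5210 reads in Control, 5003 in ScxHt and 4146 in Dicer cKO tendon and a Dicer cKO to Control ratio of 0.826 (0.793 to 0.861). Itga10, known from cartilage, had 856 reads in Control, 1076 in ScxHt and 857 in Dicer cKO tendon, and its Dicer cKO/Control interval held 1. The balance among the 4 subunits differed between the libraries. Per length, the Itga11 to Itga10 ratio was 1.49 in Control, 1.11 in ScxHt and 0.825 in Dicer cKO tendon (95% counting intervals 1.36 to 1.62, 1.02 to 1.20 and 0.746 to 0.913). All 6 tendon fibroblast markers listed (Tnmd, Scx, Mkx, Fmod, Thbs4 and Col1a1) had a Dicer cKO/Control interval below 1, 4 of them with a ratio below 0.60. Their summed RPKM was 15111, 13134 and 8570 in the Control, ScxHt and Dicer cKO libraries, most of it from Col1a1 (11832, 8948 and 6704). Dicer cKO was the lowest library for all 6, whereas ScxHt was the highest for 4 (Tnmd, Mkx, Fmod and Thbs4) and below the Control for Scx and Col1a1. Scx is the gene with the Cre knock-in at 1 allele in ScxHt and Dicer cKO mice. Its ratios to the Control, 0.623 in ScxHt and 0.365 in Dicer cKO, cannot tell the knock-in apart from other differences. The part of these 6 markers in the Itga11 and Fn1 values was not tested.

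Of the 3 alpha subunits that bind laminin, Itga7 and Itga6 were higher in Dicer cKO than in both others, though Itga6 passed no threshold. Itga7, the main laminin receptor alpha subunit of skeletal muscle, had 771 reads in Control, 661 in ScxHt and 1057 in Dicer cKO tendon, with a ratio of 1.42 (1.30 to 1.56) in Dicer cKO against Control, 0.822 (0.739 to 0.913) in ScxHt against Control and 1.76 (1.60 to 1.94) in Dicer cKO against ScxHt. Itga6, found on endothelium, Schwann cells and epithelium, had 1439 reads in Control, 1292 in ScxHt and 1888 in Dicer cKO tendon and ratios of 1.36 (1.27 to 1.46), 0.860 (0.797 to 0.928) and 1.61 (1.50 to 1.73) in the same 3 comparisons. Dicer cKO was highest and ScxHt lowest for both. Itga3, the third laminin-binding subunit, was scarce, with 141 reads in Control, 134 in ScxHt and 130 in Dicer cKO tendon, and no interval excluded 1. Itgb1bp2, called melusin, is a muscle protein that binds the cytoplasmic tail of beta1 integrin. It had 736 reads in Control, 491 in ScxHt and 1102 in Dicer cKO tendon, and its ratios were 1.55 (1.42 to 1.71), 0.639 (0.569 to 0.718) and 2.47 (2.22 to 2.76). Itga7 lies on chromosome 10 from 128933818 to 128958282 (plus strand) and Itgb1bp2 on chromosome X from 101449088 to 101453541 (plus strand).

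Skeletal muscle RNA was also highest in Dicer cKO and lowest in ScxHt. The 8 muscle markers listed (Ckm, Acta1, Ttn, Myh4, Myh1, Tnnt3, Mylpf and Ryr1) had a summed RPKM of 5008 in Control, 3644 in ScxHt and 9000 in Dicer cKO tendon, and none was at 0. For 6 of the 8, Dicer cKO was highest and ScxHt lowest, the exceptions being Myh4 and Mylpf. The median ratio of the 8 markers was 1.73 in Dicer cKO against Control, with a range of 1.32 to 6.37. Of the 39 members, 14 (35.9%) had that order of normalized counts, whatever the size of the differences, beside 20.7% of 13504 genes analysed. Scaled by total counts it was 11 members (28.2%), beside 16.9%. The order was not particular to muscle. Among markers analysed, it also held for 6 of 8 of endothelium, 6 of 7 of Schwann cells and 3 of 6 of mural cells. The part of muscle in these values was not tested.

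Among the beta subunits, Itgb1, the common partner of most alpha subunits, dominated. It had 10044 reads in Control, 11518 in ScxHt and 9157 in Dicer cKO tendon and made up 75.9%, 78.1% and 79.3% of the summed RPKM of the 6 beta subunits. Its ratios stayed near 1, at 0.947 (0.920 to 0.974) in Dicer cKO against Control and 1.10 (1.07 to 1.13) in ScxHt against Control. Itgb5, which pairs with alphav and binds vitronectin, was the next, with 2082 reads in Control, 2195 in ScxHt and 1297 in Dicer cKO tendon. It was lower in Dicer cKO than in both others without passing 0.60, with ratios of 0.647 (0.603 to 0.694) to the Control and 0.651 (0.607 to 0.698) to ScxHt, whereas the ScxHt/Control ratio was 1.01 (0.951 to 1.07). Itgav, its alpha partner, had 3088 reads in Control, 3297 in ScxHt and 2321 in Dicer cKO tendon and a Dicer cKO to Control ratio of 0.781 (0.739 to 0.824).

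Itgb8 was the only member past the upper threshold in Dicer cKO against Control. Its product pairs with alphav and is known for the activation of latent TGF-beta. It had 220 reads in Control, 346 in ScxHt and 449 in Dicer cKO tendon, with ratios of 2.12 (1.80 to 2.50) in Dicer cKO against Control, 1.51 (1.27 to 1.79) in ScxHt against Control and 1.43 (1.24 to 1.65) in Dicer cKO against ScxHt. The 3 libraries were thus spread in steps, with ScxHt between the others. Itgb8 is on chromosome 12 from 119158022 to 119238802 (GRCm38, minus strand).

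Itgb6 also codes for an alphav partner that activates latent TGF-beta, and is best known from epithelium. It had 384 reads in Control, 223 in ScxHt and 595 in Dicer cKO tendon. Its ratio was 0.556 (0.470 to 0.658) in ScxHt against Control and 2.94 (2.52 to 3.44) in Dicer cKO against ScxHt, the highest of all members there, and 1.61 (1.41 to 1.83) in Dicer cKO against Control, just under the upper threshold. The partners of alphav besides beta1 thus differed in proportion between the libraries. Per length, the Itgb8 to Itgb5 ratio was 0.0321 in Control, 0.0479 in ScxHt and 0.105 in Dicer cKO tendon. The Itgb6 to Itgb5 ratio was 0.0872, 0.0480 and 0.217. Itgb5 remained the largest of Itgb3, Itgb5, Itgb6 and Itgb8 in RPKM, with 85.7%, 86.0% and 72.1% of their sum. Itgb3, the vitronectin receptor of osteoclasts and platelets, was scarce, with 175 reads in Control, 258 in ScxHt and 146 in Dicer cKO tendon, and its ScxHt/Control ratio was 1.41 (1.16 to 1.72).

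Itgb4 pairs with alpha6 as a laminin receptor of epithelium, Schwann cells and perineurium. It had 404 reads in Control, 234 in ScxHt and 368 in Dicer cKO tendon, so that the ScxHt library was the lowest, with ratios of 0.555 (0.470 to 0.654) in ScxHt against Control and 0.946 (0.819 to 1.09) in Dicer cKO against Control. Epithelial markers were scarce, and none reached the minimum for analysis. Of the 6 listed, Krt5 and Krt15 had 0 reads in all 3 libraries, Krt14 had 0, 0 and 2, Epcam had 0, 0 and 3, Krt10 had 1, 11 and 0 and Cdh1, the most read, had 1, 8 and 54. Schwann cell markers had a summed RPKM of 12.1, 13.0 and 175 over the 8 listed. The part of these cells in the Itgb4 values was not tested. Itgb4 is on chromosome 11 from 115974709 to 116008412 (plus strand) and Itgb6 on chromosome 2 from 60598292 to 60722643 (minus strand).

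**Figure D3:**
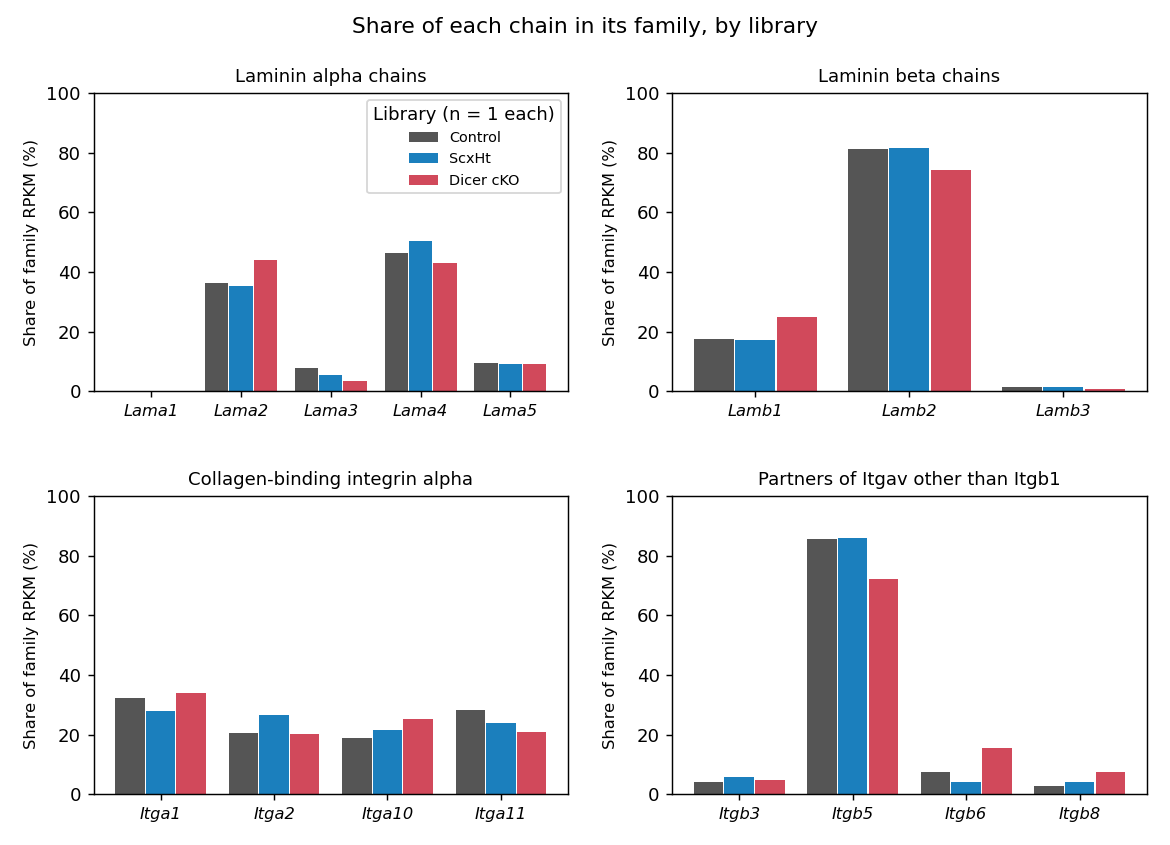
Share of each chain in the summed RPKM of its family (%, bars from 0), in the Control, ScxHt and Dicer cKO library with 1 library each, for laminin alpha chains, laminin beta chains, collagen-binding integrin alpha subunits, and the partners of Itgav other than Itgb1. In the Dicer cKO library Lama2, Lamb1, Itga10, Itgb6 and Itgb8 took a larger share than in the Control, and Lama3, Lamb2, Itga11 and Itgb5 a smaller one.

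Lamc1, Lamb2, Lama4 and Lama2 were the most abundant laminin chains in RPKM, with Lama4 and Lama2 nearly level in Dicer cKO. Lamc1, the gamma chain shared by most laminins, made up 99.7%, 99.3% and 99.8% of the RPKM of the 2 gamma chains listed, with 6468 reads in Control, 7253 in ScxHt and 7778 in Dicer cKO tendon and a Dicer cKO to Control ratio of 1.25 (1.21 to 1.29). Lama4, the alpha chain of endothelium and of mesenchymal cells, had 4114 reads in Control, 4464 in ScxHt and 4421 in Dicer cKO tendon. Its ratios to the Control were 1.12 (1.07 to 1.16) for Dicer cKO and 1.04 (0.996 to 1.09) for ScxHt. Lama2, the alpha chain of the basement membrane of muscle fibres and Schwann cells, had 4358 reads in Control, 4232 in ScxHt and 6110 in Dicer cKO tendon. The Dicer cKO library was the highest, with ratios of 1.46 (1.40 to 1.51) to the Control and 1.59 (1.53 to 1.65) to ScxHt. Per length, Lama2 was below Lama4 in the Control (0.782) and ScxHt (0.700) libraries and about level with it in Dicer cKO (1.02, 95% counting interval 0.982 to 1.06). Lama5, the alpha chain of mature vessels and epithelium, had 797 reads in Control, 755 in ScxHt and 899 in Dicer cKO tendon, with a Dicer cKO to Control ratio of 1.17 (1.06 to 1.29).

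The beta chains went in opposite directions. Lamb1, the widespread beta chain, had 1636 reads in Control, 1839 in ScxHt and 2041 in Dicer cKO tendon, and Lamb2, the beta chain known from synapses, vessels and kidney, had 4664 reads in Control, 5389 in ScxHt and 3726 in Dicer cKO tendon. In Dicer cKO against Control the ratio was 1.30 (1.21 to 1.38) for Lamb1 and 0.830 (0.794 to 0.866) for Lamb2. Within each library, the Lamb1 to Lamb2 ratio per length was 0.215 in Control, 0.209 in ScxHt and 0.336 in Dicer cKO tendon (95% counting intervals 0.203 to 0.228, 0.198 to 0.221 and 0.318 to 0.355). The Control and ScxHt intervals overlapped and the Dicer cKO interval lay above both.

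Lama3 and Lamb3 code for chains of the laminin that anchors epithelium. Lama3 had 628 reads in Control, 422 in ScxHt and 325 in Dicer cKO tendon, a ratio of 0.537 (0.469 to 0.615) in Dicer cKO against Control and 0.644 (0.568 to 0.730) in ScxHt against Control. Both libraries with the ScxCre allele were thus below the Control, with a Dicer cKO/ScxHt ratio of 0.849 (0.732 to 0.983). Lamb3 had 90 reads in Control, 98 in ScxHt and 47 in Dicer cKO tendon, with ratios of 0.542 (0.373 to 0.780) in Dicer cKO against Control and 1.04 (0.776 to 1.40) in ScxHt against Control. The reads were few, and Lamb3 in Dicer cKO had 47. Lama3 is on chromosome 18 from 12333819 to 12583013 and Lamb3 on chromosome 1 from 193207699 to 193343878 (GRCm38, both on the plus strand).

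Type IV collagen was almost wholly the alpha1 and alpha2 chains, the form of vessels and of most basement membranes. Col4a1 had 9684 reads in Control, 8122 in ScxHt and 10385 in Dicer cKO tendon and Col4a2 had 7914 reads in Control, 6807 in ScxHt and 8526 in Dicer cKO tendon, together 97.7%, 97.3% and 98.1% of the RPKM of the 6 chains. Both were highest in Dicer cKO and lowest in ScxHt. The ratios of Col4a1 were 1.11 (1.08 to 1.15) in Dicer cKO against Control, 0.804 (0.780 to 0.828) in ScxHt against Control and 1.41 (1.37 to 1.45) in Dicer cKO against ScxHt, and those of Col4a2 were 1.12 (1.08 to 1.15), 0.824 (0.798 to 0.851) and 1.38 (1.34 to 1.42). Endothelial markers had the same order for 6 of the 8 listed (Pecam1, Cdh5, Kdr, Tek, Emcn, Vwf, Cldn5 and Tie1), the exceptions being Emcn and Tie1. Their summed RPKM was 121, 88.0 and 138 in the Control, ScxHt and Dicer cKO libraries, and the ScxHt/Control interval lay below 1 for all 8. In Dicer cKO against Control the list was split. The interval lay above 1 for 5, held 1 for Emcn and Cldn5 and lay below 1 for Tie1, at 0.743 (0.660 to 0.836). The part of endothelium in the Col4a1 and Col4a2 values was not tested.

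The proportion of the type IV pair was nearly the same in the 3 libraries. Per length, Col4a1 to Col4a2 was 1.09 in Control, 1.06 in ScxHt and 1.08 in Dicer cKO tendon, with 95% counting intervals that overlapped (1.05 to 1.12, 1.02 to 1.09 and 1.05 to 1.11). A triple helix of this form holds 2 alpha1 chains and 1 alpha2 chain. The genes sit head to head on chromosome 8, Col4a1 on the minus strand from 11198423 to 11312826 and Col4a2 on the plus strand from 11312805 to 11449287, so that their annotated first exons share 22 bases. Col4a3 and Col4a4 have the same arrangement on chromosome 1 with 71 bases between their starts, and Col4a5 and Col4a6 on chromosome X with 1308. The alpha3 and alpha4 chains, which join alpha5 in the kidney filter, were scarce here, with 83 reads in Control, 72 in ScxHt and 68 in Dicer cKO tendon for Col4a3 and 238 reads in Control, 226 in ScxHt and 216 in Dicer cKO tendon for Col4a4. Col4a5 had 186 reads in Control, 199 in ScxHt and 162 in Dicer cKO tendon. Their intervals held 1 in all 3 comparisons.

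Because Dicer makes miRNAs and the miR-29 family is known to bind messages of type IV collagens and laminin gamma1, the miR-29 sequences are shown with the matching sites in the members. Mature sequences are from RefSeq (GRCm38.p6), and capitals mark the seed, bases 2 to 8, which all 3 share.
mmu-miR-29a-3p: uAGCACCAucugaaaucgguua
mmu-miR-29b-3p: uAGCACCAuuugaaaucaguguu
mmu-miR-29c-3p: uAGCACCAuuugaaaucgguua

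A full match of 8 bases to this seed (TGGTGCTA, an 8mer, searched on the transcript strand) was found in the longest annotated 3′ UTR of 4 members, Lamc1, Col4a1, Col4a5 and Col4a6. The sites are shown within 30 bases, with the 8mer in capitals, because they are the places where the seed above can pair. The Lamc1 site is at chr1:153220068-153220075 (minus strand), the Col4a1 site at chr8:11199761-11199768 (minus strand), the first of 3 Col4a5 sites at chrX:141688253-141688260 (plus strand) and the Col4a6 site at chrX:141166514-141166521 (minus strand), all on GRCm38.
Lamc1: atctgacacacTGGTGCTAttaattatttg
Col4a1: ccgtcacaacaTGGTGCTActcccccccct
Col4a5: gctcccaccaaTGGTGCTAatatcctctat
Col4a6: ttccatccatcTGGTGCTAacattccattt

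The Col4a1 site starts 33 bases after the stop codon and the Lamc1 site 1398 bases after it. A match of 7 bases (TGGTGCT, to the whole seed) was the best in 10 more members analysed: Itga4, Itga5, Itga9, Itgb1, Itgb3, Col4a2, Col4a3, Col4a4, Agrn and Dag1. A weaker 7mer (GGTGCTA) was the best in 4, Itga10, Itga11, Nid2 and Hspg2. All 6 type IV collagen chains held a match to the full seed. Among the 39 members analysed, 13 (33.3%) had such a 7mer or 8mer, beside 16.9% of 10956 genes with an annotated 3′ UTR, and 3 (7.69%) had an 8mer, beside 3.63%. A match in these letters is a description and not a measured binding site.

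The miR-29 loci were read in the small RNA-seq libraries of the same tendons. Mir29a had 13829 reads in Control, 10302 in ScxHt and 7624 in Dicer cKO tendon, with a Dicer cKO to Control ratio of 0.632 (0.614 to 0.650) and a ScxHt/Control ratio of 0.839 (0.818 to 0.861). Mir29c had 2012 reads in Control, 1721 in ScxHt and 1449 in Dicer cKO tendon and ratios of 0.825 (0.771 to 0.883) and 0.964 (0.903 to 1.03). Mir29b-1 and Mir29b-2 had fewer reads, 366 to 485, and their Dicer cKO/Control intervals held 1. The loci of the family were therefore still read in the Dicer cKO library. Their separate ratios to the Control ran from 0.632 for Mir29a, by far the most read locus, to 0.967 for Mir29b-2.

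The 13 members with a match to the full seed had a median Dicer cKO/Control ratio of 1.04, with an interval above 1 for 5 and below 1 for 2. The 22 with no match of either kind had a median of 1.14, with 12 above and 8 below, and their 3′ UTRs were shorter (median 645 against 2551 bases). Over all genes analysed the same medians were 0.961 for 1857 genes with a match and 0.979 for 8676 without. Lamc1 and Col4a1 were above 1 in Dicer cKO/Control, at 1.25 and 1.11, and Col4a5 was at 0.904 with an interval that held 1. The part of miR-29 in these values was not tested.

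The linkers and proteoglycans of the basement membrane also split. Hspg2, which codes for perlecan, was the second most read member, with 21181 reads in Control, 18883 in ScxHt and 16684 in Dicer cKO tendon. Its ratios were 0.818 (0.802 to 0.835) in Dicer cKO against Control and 0.854 (0.838 to 0.871) in ScxHt against Control, so that both mice with the ScxCre allele were below the Control, with a ratio of 0.974 (0.953 to 0.994) to each other. Nid1, the nidogen that joins laminin to type IV collagen, was above the Control in both, with 6073 reads in Control, 7688 in ScxHt and 7211 in Dicer cKO tendon and ratios of 1.23 (1.19 to 1.28) and 1.21 (1.17 to 1.25). Nid2, its paralogue, had 1141 reads in Control, 1106 in ScxHt and 1261 in Dicer cKO tendon and a Dicer cKO to Control ratio of 1.15 (1.06 to 1.24).

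Col18a1, whose product releases endostatin, was higher in Dicer cKO than in both others without passing the upper threshold. It had 801 reads in Control, 840 in ScxHt and 1136 in Dicer cKO tendon and ratios of 1.47 (1.34 to 1.61) to the Control and 1.49 (1.36 to 1.63) to ScxHt, while the ScxHt/Control interval held 1. Agrn, which organizes the neuromuscular synapse and binds dystroglycan, had 570 reads in Control, 428 in ScxHt and 595 in Dicer cKO tendon. It was lowest in ScxHt, with a ScxHt/Control ratio of 0.720 (0.633 to 0.817) and a Dicer cKO/Control interval that held 1. Dag1, the dystroglycan precursor, had 3111 reads in Control, 3255 in ScxHt and 3375 in Dicer cKO tendon and a Dicer cKO to Control ratio of 1.13 (1.07 to 1.18).

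Other genes of the same pathways were taken as whole lists by function. Of 27 genes of the integrin adhesion complex, such as the talins, kindlins, Ilk, the parvins and paxillin, 25 were analysed and none passed a threshold in any of the 3 comparisons. Their median log2 ratio was -0.06 in Dicer cKO against Control and -0.04 in ScxHt against Control. The nearest to a threshold in Dicer cKO/Control was Kank2, an adapter of talin, with a ratio of 0.652 (0.607 to 0.700).

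All 19 genes of the dystroglycan complex were analysed. In Dicer cKO against ScxHt, 4 of them were higher (beside 7.67% of all genes) and 0 lower (beside 5.68%). None passed a threshold in Dicer cKO against Control, where the median ratio was 0.998, and Dmd, which codes for dystrophin, came nearest with 5309 reads in Control, 3457 in ScxHt and 8419 in Dicer cKO tendon and a ratio of 1.65 (1.59 to 1.70). In ScxHt against Control, the muscle sarcoglycan Sgca was lower, at 0.467 (0.352 to 0.615), and none was higher. It is a muscle gene and had the order of 6 of the 8 muscle markers and of Itga7 and Itgb1bp2.

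Of 22 other basement membrane genes, 19 were analysed. In Dicer cKO against ScxHt, 7 of the 19 were higher (beside 7.67% of all genes) and 1 was lower (beside 5.68%). In Dicer cKO against Control, 3 of the 19 were higher (beside 3.87% of all genes), Frem1, Frem2 and Smoc2. Fbln1 was lower there (1 of 19, beside 4.17%). Frem1 and Frem2 form the Fraser complex, which anchors embryonic epithelium to its basement membrane. Frem1 had 115 reads in Control, 126 in ScxHt and 357 in Dicer cKO tendon and a ratio of 3.22 (2.61 to 4.01), and Frem2 had 677 reads in Control, 406 in ScxHt and 1339 in Dicer cKO tendon and a ratio of 2.05 (1.87 to 2.26). Fras1, the third protein of that complex, was just under the threshold at 1.66 (1.51 to 1.83). Smoc2, a calcium-binding matricellular protein, had 235 reads in Control, 289 in ScxHt and 484 in Dicer cKO tendon and a ratio of 2.14 (1.83 to 2.51). Fbln1, a partner of fibronectin in the matrix, had 924 reads in Control, 1470 in ScxHt and 425 in Dicer cKO tendon. Its ratio was 0.478 (0.425 to 0.536) in Dicer cKO against Control and 1.52 (1.40 to 1.66) in ScxHt against Control, the same order of libraries as Fn1.

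In ScxHt against Control, 1 of these 19 genes was higher (beside 3.05% of all genes), Smoc1, at 1.73 (1.54 to 1.94). Frem2, at 0.575 (0.507 to 0.651), Hmcn2, at 0.493 (0.449 to 0.541), and Papln, at 0.301 (0.208 to 0.426), were lower (3 of 19, beside 4.73%). Of the 12 integrins, integrin-related genes and laminins outside the 42, 6 were analysed in Dicer cKO against Control and 5 in ScxHt against Control. Itgam, the alpha subunit of the myeloid receptor Mac-1, had 157 reads in Control, 316 in ScxHt and 129 in Dicer cKO tendon and a ScxHt/Control ratio of 1.93 (1.59 to 2.35). Macrophage markers had that order too, with a summed RPKM over the 6 listed (Cd68, Adgre1, Csf1r, Mrc1, C1qa and C1qb) of 50.7, 93.2 and 38.9 in the Control, ScxHt and Dicer cKO libraries.

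**Figure D4:**
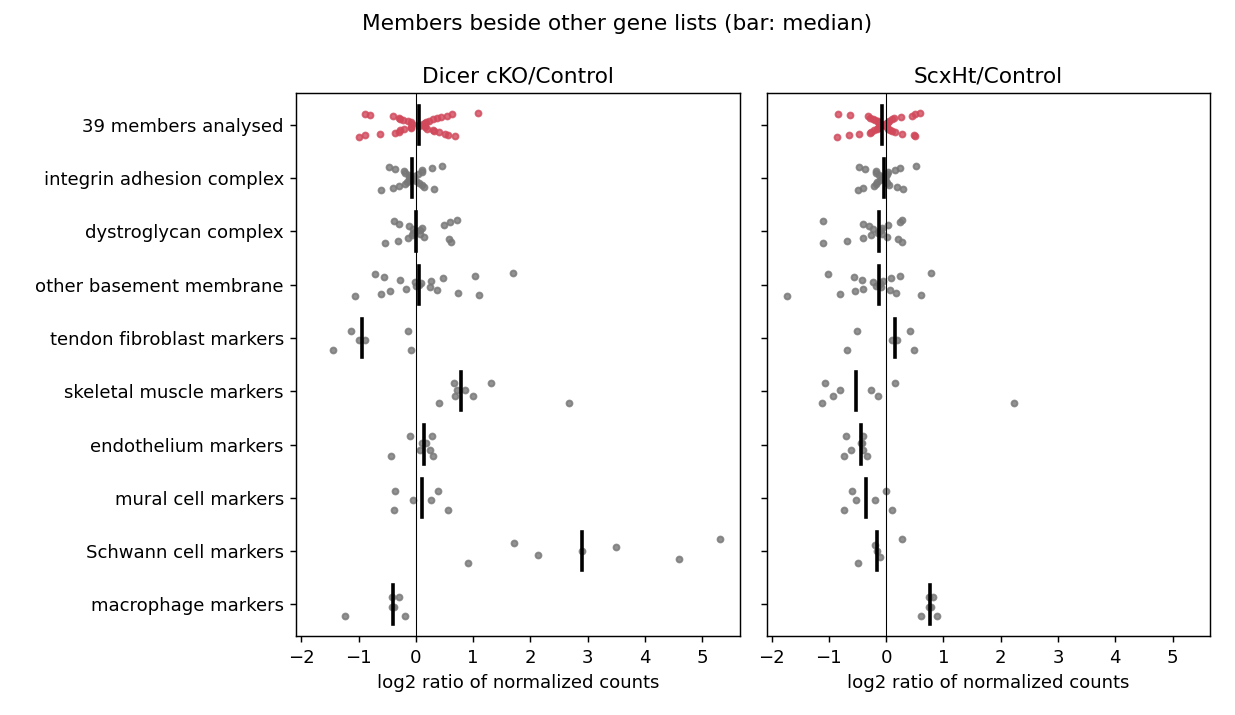
Log2 ratios of normalized counts in Dicer cKO against Control (left) and ScxHt/Control (right), with 1 point per gene and a bar at the median of each list. The members (red) centre on 0.06 and -0.07, the skeletal muscle markers on 0.79 and -0.53, the tendon fibroblast markers on -0.94 and 0.15, and the Schwann cell markers on 2.90 and -0.15.

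The remaining marker lists are given as levels only, and their part in the members' values was not tested. Mural cell markers summed to 205, 181 and 241 RPKM over 6 genes in the Control, ScxHt and Dicer cKO libraries, and adipocyte markers to 229, 299 and 274 over 4. The mural list was split in Dicer cKO against Control. The interval lay above 1 for Acta2 and Myh11 and below 1 for Cspg4 and Notch3, and it held 1 for Rgs5 and Kcnj8. Perineurial markers, a list of 5 that includes Itgb4, summed to 9.72, 9.68 and 9.56, with Lypd2 at 0 in all 3. This even sum held genes that went opposite ways in Dicer cKO against Control. Slc2a1, the largest part of it in Control and ScxHt, had a ratio of 0.683 (0.567 to 0.821). Cldn1, with 24 reads in Control, 42 in ScxHt and 82 in Dicer cKO tendon, had a ratio of 3.55 (2.23 to 5.85). The Itgb4 interval held 1, and Moxd1 was below the minimum. Tnmd, Scx and Col1a1, which mark tendon fibroblasts, were read in all 3 libraries beside the muscle, vessel, fat and nerve genes given above.

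Some counts could include reads of another gene. By GENCODE vM21, 16 of the 42 members share exon bases with another annotated gene, mostly on the opposite strand, and the strand setting of the counting is not given in the sources used here. Among members past a threshold these were Fn1 (292 bases), Lama3 (197), Itgb4 (537) and Itga7 (9). Itga10 shares 1739 bases and Itga1 685 with a gene on the same strand. Itga11, Itga2, Itgb6, Itgb8, Itgb1bp2 and Lamb3 shared none.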

How the data were processed

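RNA-seq and small RNA-seq libraries of Achilles tendon, 1 of each per genotype, were sequenced from the same 3 tendons. By the methods and the submitters' processing notes, the authors trimmed the reads, aligned them to GRCm38 (TopHat, Bowtie2) and counted them per gene (HTSeq). Raw counts per gene were deposited without normalization. The authors also deposited RPKM values for each RNA-seq library, which scale the counts by feature length and library total, and these were used here for levels per length and for feature lengths. The annotation release, versions and strand setting are not given in the sources used here.

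The 3 RNA-seq libraries held 14959399 to 16244232 counts over 54189 lines, 463 of which are exact repeats of another line and were kept. For each pair of libraries, counts were divided by the median-of-ratios size factors of DESeq2 1.42.0 (R 4.3.3), and genes with a mean normalized count (baseMean) above 50 were analysed, as in the study's methods. Ratios below 0.60 were counted as lower and ratios above its inverse, about 1.7, as higher. The 95% Clopper-Pearson interval of each ratio came from the share of a gene's reads in one library of the pair. It covers counting error only and holds no spread between mice. It treats reads as independent and is too narrow where they are not independent molecules. A count of 3 was taken as the floor. No test was made and no pseudocount added. Ratios of 2 genes within a library were taken per length. The tools were numpy 2.4.6, scipy 1.17.1, pandas 2.3.3 and matplotlib 3.10.9 under Python 3.11.15. The ratio and interval functions were tested on simulated counts with known fold changes.

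Every member was named with its counts. Of the lists of other genes, those past a threshold for Dicer cKO/Control or ScxHt/Control were named, apart from some that are not reported here, with Kank2, Dmd and Fras1 added after their values were seen. The members and the gene lists were chosen with earlier results of these data known. Positions, exon overlaps and 3′ UTRs came from GENCODE vM21 (GRCm38), taking the longest 3′ UTR of each gene, and mature miRNAs from RefSeq. The alternatives were edgeR 4.0.16 TMM factors, total counts, total counts without features above 1% of a library, size factors over 3 libraries, a minimum baseMean of 10, 200 or none, thresholds of 2 and 0.5, a pseudocount of 1, the whole interval past the threshold and, chosen after seeing the data, repeated lines dropped.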

Additional observations from a re-analysis of the deposited data

How the results depend on the processing

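The counts of members past a threshold depended mainly on the thresholds. With thresholds of 2 and 0.5, 1 member was higher and 0 lower for Dicer cKO/Control (Fn1 lay just above 0.5), 0 were lower for ScxHt/Control, and Dicer cKO/ScxHt gave 2 higher and 1 lower. When the whole counting interval had to pass a threshold, Fn1 was the 1 lower and Itgb8 the 1 higher member for Dicer cKO/Control, 0 were lower for ScxHt/Control, and 2 higher (Itgb6 and Itgb1bp2) and 1 lower (Fn1) for Dicer cKO/ScxHt. Total counts made 2 members higher for Dicer cKO/Control, Itgb6 being added, and took Itga11 from the lower ones (0.603). For Dicer cKO/ScxHt they took Itgb4 from the higher members (1.66) and added Itgb3 to the lower ones (0.597). With a minimum baseMean of 200, Lamb3 was no longer analysed, so its lower call was lost in both Dicer cKO comparisons. With a minimum baseMean of 10 or none, 1 member, Lamc3, was higher for ScxHt/Control. The same settings added Lamc3 to the lower members for Dicer cKO/ScxHt (0.417). Total counts moved the median log2 ratio of all genes from 0.02 to 0.12 for ScxHt/Control and that of the members from -0.07 to 0.03, so the members' sign there depends on the scaling. No member past a threshold reversed under any scaling, with a pseudocount of 1 or without repeated lines. No paired analysis was possible because each genotype had 1 library. What limits every value is that the spread between mice is unknown. Counting error limits most the scarce members, such as Lamb3, Col4a3, Itga3 and Itgb3. It also limits calls whose interval crosses a threshold, such as those of Itga11 and Lama3 for Dicer cKO/Control.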
